A study of Mus musculus with 4 samples.

Results

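The transcripts described here are those of the cytosolic ribosomal proteins, the protein components of the ribosomes that translate messenger RNA in the cytoplasm. Members were chosen by name: every probe set that the platform annotation assigns to 1 gene only and whose symbol is Rpl or Rps with a number, Rplp0, Rplp1, Rplp2 or Rpsa, with the ribosomal protein S6 kinases left out. That rule, which uses no measured value, found 100 probe sets of 46 genes, out of 45037 probe sets that are not controls and 18193 genes named by a probe set of their own. A further 110 probe sets name a ribosomal protein together with another gene, often a pseudogene, and are not members. Because of this, 28 ribosomal protein genes, Rpl3, Rpl5, Rpl10, Rplp1 and Rps23 among them, have no member probe set.

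A ribosome consists of a small subunit, which holds the messenger RNA, and a large subunit, which joins the amino acids, and each is a scaffold of ribosomal RNA clad in proteins. Most of these proteins are present in a single copy per ribosome, so their genes are expressed strongly and in step in nearly every cell. Their messenger RNAs begin with a run of pyrimidines, the TOP tract (terminal oligopyrimidine), through which the mTOR pathway controls their translation. Growth of the fetal heart needs large amounts of protein synthesis, and many ribosomal protein genes have processed pseudogenes, so short probes can match several places in the genome.

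Heart ventricles of mouse embryos at embryonic day 17.5 were measured on 4 Affymetrix arrays in a cross of C57BL/6 and SV129. The comparison was between wild-type embryos (WT, 2 arrays, each a pool of 2 animals) and embryos titled knockout for the histone deacetylase Hdac2 (KO, 2 arrays, each a pool of 3 animals). The labels do not name the allele, do not say whether the loss was confined to any cell type, and do not say whether pools came from separate litters, so the p-values measure only the spread between these pools, part of which may be technical. The source field of the KO samples also reads wild type, and the Hdac2 probe sets were therefore read first.

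Hdac2 followed the titles. Probe set 1445684_s_at read 1188.5 and 1421 signal units on the WT arrays against 31.4 and 21.0 on the KO arrays, where it was called Absent, as were both other Hdac2 probe sets. Between 42.44% and 43.79% of probe sets were called Present on each array. The summed signal of 10 cardiomyocyte markers lay between 98326 and 102616 on the 4 arrays. Of 12 skeletal muscle markers 10 could be tested. Their summed signal was 12912 and 12062 on the WT arrays but 1194 and 1174 on the KO arrays. Of the 10, 8 fell (limma, adjusted p under 0.05), where 0.815% of all genes were called lower. Myog and Myod1 were Absent on all 4 arrays, and none of the 12 was at a signal of 0. Tnnc2, Tnnt3, Mylpf, Neb, Actn3 and Chrna1 were Absent on both KO arrays and Myh3 on KO1. These markers therefore entered the test through the WT arrays only, where they are high. Tnni2, Myl1 and Myh8 were Present on all 4 arrays and were among those that fell. Three-prime over five-prime signal ratios of control transcripts are a measure of RNA or labelling quality. For beta-actin they were 1.848 and 2.32 on the WT arrays and 2.747 and 2.417 on the KO arrays. For Gapdh they were 0.8441 and 0.9492 on the WT arrays and 1.178 and 1.008 on the KO arrays. In both controls the KO arrays both lay above the WT arrays. Of 5 bone and cartilage markers tested, 3 fell (limma, adjusted p under 0.05), and these were Absent on both KO arrays. Summed signal of the 5 was 337 and 349 on the WT arrays and 121 and 140 on the KO arrays. Of 8 fibroblast markers 2 fell (limma, adjusted p under 0.05), Col1a1 and Col1a2, and 4 of the 8 differences were above 0. Tested erythroid, endothelial and macrophage markers gave 0 calls (limma). Only 2 of 8 erythroid markers could be tested, with 1 difference above 0 and 1 below. Of 8 endothelial markers 5 were above 0 and 3 below. All 6 macrophage markers tested were below 0, with a median of -0.287, where 55.7% of all genes were above 0. In whole tissue, fewer cells of a type and less RNA per cell cannot be told apart. Whether the muscle, bone, fibroblast and macrophage markers or the control ratios bear on the ribosomal protein signals was not tested.

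The sequences around the annotated transcription start show how long a run of pyrimidines single members have near it. In each window of 30 bases, with 10 bases before the annotated start and 20 from it on, the capitals mark the longest run of C and T. Where runs tied in length, only the leftmost was marked. The windows are from RefSeq, build GRCm38.p6, and are given 5′ to 3′ on the strand of the gene. They are shown for the genes whose probe sets passed the test below (Rpl37a, Rps10, Rps6 and Rpl22, which has a pair of annotated starts), for Rpl39, which came nearest to it, and for Rpl35 and Rplp2 as members whose signals were nearly level.
Rpl37a, chr1:72711250-72711279, plus strand: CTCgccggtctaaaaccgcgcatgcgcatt
Rps10, chr17:27635225-27635254, minus strand: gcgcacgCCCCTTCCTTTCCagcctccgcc
Rps6, chr4:86857348-86857377, minus strand: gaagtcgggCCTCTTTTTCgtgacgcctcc
Rpl22, chr4:152324426-152324455, plus strand: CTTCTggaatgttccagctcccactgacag
Rpl22, chr4:152325716-152325745, plus strand: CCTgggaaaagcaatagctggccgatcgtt
Rpl39, chrX:37085203-37085232, minus strand: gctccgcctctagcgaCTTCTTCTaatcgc
Rpl35, chr2:39005112-39005141, minus strand: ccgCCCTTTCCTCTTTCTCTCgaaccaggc
Rplp2, chr7:141447641-141447670, plus strand: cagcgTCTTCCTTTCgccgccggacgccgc

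The longest run was 18 bases in Rpl35, 13 in Rps10, 10 in Rps6 and Rplp2 and 8 in Rpl39. The runs marked in the Rpl22 windows had 5 and 3 bases and that in the Rpl37a window 3, all before the annotated start. The Rpl22 window with the run of 5 and the Rpl37a window each also hold a later, unmarked run of equal length. That of Rpl22 lies after the start, and that of Rpl37a reaches it. The Rpl39 run began after the start. A TOP tract begins the messenger RNA, so runs taken anywhere in the window do not show which members carry one. Of the 46 member genes, 40 were in the promoter table, and 16 of them (40%) had a run of at least 8 C or T in the window, against 13% of all 27025 genes there. The letters CCGGAAG, the core of a binding site for ETS factors, stood on either strand of the 300 bases from 250 before to 50 after the start in 20 of the 40 (50%), against 9.93% of all genes. A match describes these letters only.

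Across the ribosomal proteins, KO and WT ventricles gave nearly the same signals. Of the 100 probe sets, 87 could be tested, having Present calls on both WT or both KO arrays, and they cover 43 genes. Of these, 84 were Present on all 4 arrays, and 3 entered through 1 group only (1454833_at of Rpl35, 1436384_at of Rps10 and 1450417_a_at of Rps20). The median difference, KO minus WT on the log2 scale, was 0.003 over the 87 and 0.01 over all 19065 probe sets tested. Among the 87, 44 differences were above 0 and 43 below, and over all probe sets tested 52% were above 0. The middle of the distribution, from the lower to the upper quartile, spanned -0.04 to 0.08, while over all probe sets tested it spanned -0.19 to 0.18.

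At an adjusted p under 0.05 (limma, Benjamini-Hochberg over all 19065), 2 of the 87 probe sets were higher in KO and 2 were lower. Over all probe sets tested, 1.34% were called (0.383% higher and 0.96% lower), so the 4 ribosomal protein calls make up 4.6% of their set. Unadjusted p was under 0.05 at 10 of the 87 (11.5%), 5 of them higher, against 15.5% of all probe sets tested (7.29% higher). The KO arrays both lay above both WT arrays at 15 of the 87 (25% of all probe sets tested) and both below at 10 (22.5% of all), together 28.7% against 47.5%. The 95% confidence interval of the difference lay within 1.25-fold either way at 54 of the 87 (62.1%) against 7.01% of all probe sets tested. Precision differs with signal, and the median standard error (SE) was 0.09 for the ribosomal proteins and 0.18 overall.

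Taking for each gene the tested probe set with the highest mean signal, 43 genes gave 0 calls higher and 1 lower (2.33%; of 10184 genes by the same rule 1.3% were called, 0.481% higher and 0.815% lower). At an unadjusted p under 0.05 there were 1 higher and 3 lower, 9.3% against 15.6% of all genes (8.42% higher). The KO arrays both lay above both WT arrays for 5 genes (28% of all) and both below for 7 (20.6% of all), together 27.9% against 48.6%. The differences ran from -0.72 to 0.33 with a median of 0.01, against 0.03 over all 10184 genes. The interval lay within 1.25-fold for 27 of the 43 genes (62.8%; 8.37% of all genes). Among 258 other genes whose mean log2 signal was at least 11.80, the lower quartile of the ribosomal proteins, that share was 69%, and for the 32 ribosomal protein genes above the same limit it was 78.1%.

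**Figure D1:**
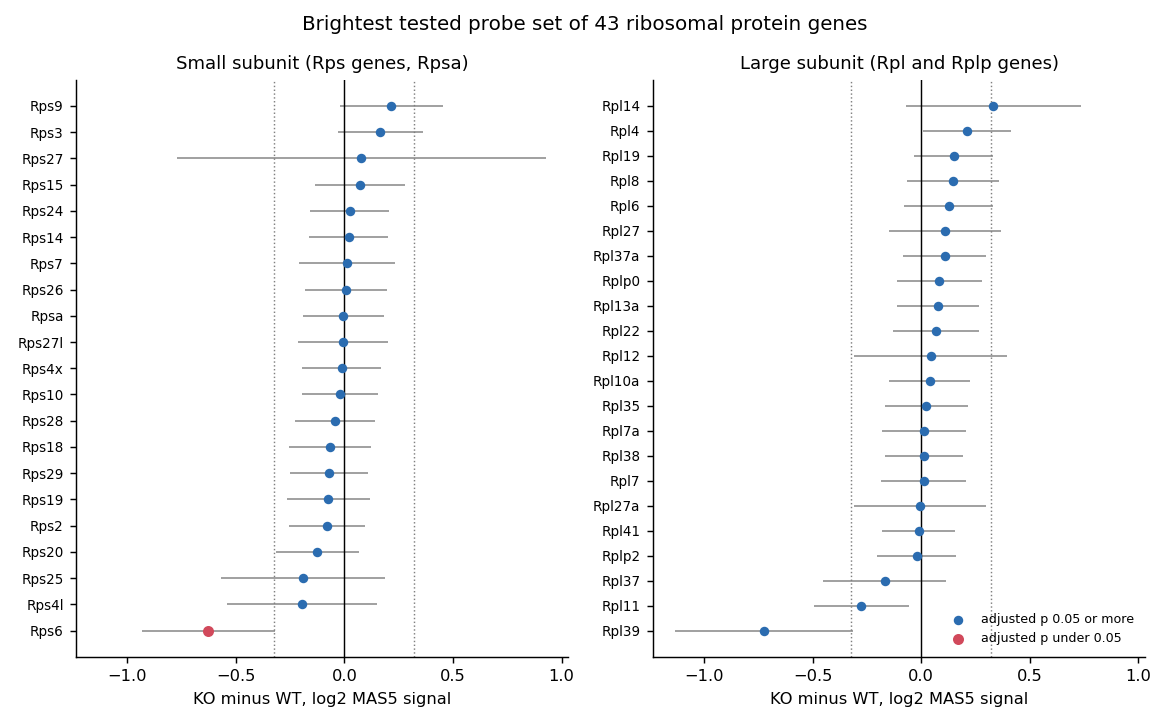
Log2 difference in signal, KO minus WT, for the probe set with the highest mean signal of each of 43 ribosomal protein genes, small subunit on the left and large subunit on the right; points are fitted differences (red where adjusted p is under 0.05), bars their 95% confidence intervals (limma, 2 arrays per group), and dotted lines 1.25-fold either way. Most points lie close to 0; Rps6 (-0.63) and Rpl39 (-0.72) lie farthest below and Rpl14 (0.33) farthest above.

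The small subunit was covered by 21 tested genes with a median difference of -0.01, 8 above 0 and 13 below, and 1 call, Rps6. Of all genes 55.7% were above 0 and 1.3% were called. The interval lay within 1.25-fold for 15 of the 21. Rps3 and Rps2, which line the path by which messenger RNA enters, showed small differences. Rps3 read 7227 and 7225 in WT, with 7561 and 8693 in KO (0.17 ± 0.09 SE, n = 2 arrays per group, limma adjusted p = 0.4). The KO arrays lay above the WT arrays, but the difference did not pass the test. Rps2 read 10316 and 9912 in WT, with 9338 and 9794 in KO (-0.08 ± 0.08, limma adjusted p = 0.675). Over the 6 tested genes of the messenger RNA path the median was 0.01, with 4 above 0 and 2 below. They gave 0 calls (limma, 1.3% of all genes) and 0 at an unadjusted p under 0.05 (15.6% of all genes). Rpsa, also known as the laminin receptor, read 8487 and 8530.2 in WT, with 8066 and 8923 in KO, and the groups overlapped (-0.004 ± 0.086).

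Other small-subunit proteins named for the size of their difference were Rps9, Rps20, Rps25 and Rps4l. Rps9 read 4775 and 4019 in WT, with 4669 and 5534 in KO, with overlapping groups (0.22 ± 0.11, limma adjusted p = 0.373). Rps20 at 1456373_x_at read 8294 and 7469.6 in WT, with 7016.5 and 7440.5 in KO (-0.12 ± 0.09, limma adjusted p = 0.529). Rps25, a protein some viral messages need for entry at internal sites, read 270.5 and 277 in WT, with 281 and 204 in KO (-0.19 ± 0.18, limma adjusted p = 0.637). The KO2 array alone was low, and without it the difference was 0.04. A brighter probe set that Rps25 shares with Gm6988 and Gm4963, 1451068_s_at, lay on the other side of 0. It read 4291 and 4162 on the WT arrays and 4302 and 4667 on the KO arrays (0.08 ± 0.09, limma adjusted p = 0.695). Rps4l, an autosomal relative of the X-linked Rps4x, read 788 and 721 in WT, with 544 and 798 in KO (-0.19 ± 0.16, limma adjusted p = 0.593). Here KO1 was low and KO2 the highest of the 4, and without KO1 the difference was 0.08. Rps27 spread most between replicates of the same genotype, with 215 and 73.3 in WT, with 181 and 96.9 in KO (0.08 ± 0.39), and its interval ran from -0.77 to 0.93. This spread belongs to 1460699_at. The probe set that Rps27 shares with Rps27rt, 1415716_a_at, read 7343.5 and 7233 on the WT arrays and 6929 and 7610.1 on the KO arrays (-0.005 ± 0.087).

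The large subunit was covered by 22 tested genes with a median difference of 0.04, 16 above 0 and 6 below (55.7% of all genes were above 0). It had 0 calls at an adjusted p under 0.05 (limma), where 1.3% of all genes were called. At an unadjusted p under 0.05 there were 3 of the 22, 1 higher and 2 lower, against 15.6% of all genes. The interval lay within 1.25-fold for 12 of the 22. Rplp0 and Rplp2, with Rplp1 the proteins of the stalk that recruits the translation GTPases, and Rpl12 at its base differed by between -0.02 and 0.08. Rplp0 read 6991 and 6246 in WT, with 6797 and 7203 in KO (0.08 ± 0.09), and Rplp2 read 7073 and 6796.2 in WT, with 6874 and 6796.7 in KO (-0.02 ± 0.08). In both the groups overlapped. Rpl12 was tested at 1435655_at, which read 209 and 200.5 in WT, with 203 and 219 in KO (0.04 ± 0.16). Brighter probe sets that Rpl12 shares with other loci differed by 0.198 ± 0.113 at 1416026_a_at (limma adjusted p = 0.418) and 0.055 ± 0.086 at 1435725_x_at.

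Of the proteins that line the tunnel through which the new chain leaves, 4 could be tested, with a median of 0.09, 3 above 0 and 1 below. They gave 0 calls (limma, 1.3% of all genes). Unadjusted p was under 0.05 for 2 of the 4, 1 higher and 1 lower, against 15.6% of all genes. Rpl39, a very small protein of the tunnel wall, read 307 and 347 in WT, with 240.5 and 163 in KO. The KO arrays lay below the WT arrays, and the difference was -0.72 ± 0.19, 1.65-fold, with a limma adjusted p of 0.0883. It passed the threshold without KO1 (limma adjusted p = 0.00912), and was -0.44 without KO2. A probe set that Rpl39 shares with the locus Gm32211, 1450840_a_at, lay on the other side of 0, with 8943 and 10168 on the WT arrays, 9828 and 10548 on the KO arrays and overlapping groups (0.09 ± 0.09, limma adjusted p = 0.649). Rpl4, which reaches into the tunnel with a long loop, read 7365 and 7704 in WT, with 8058 and 9427 in KO (0.21 ± 0.09, limma adjusted p = 0.302). The groups did not overlap, KO2 lay farther out than KO1, and without KO2 the difference was 0.10.

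Rpl11 forms a particle with Rpl5 and the 5S ribosomal RNA, which can also bind the p53 regulator Mdm2. It read 3569 and 3152 in WT, with 2644 and 2907 in KO. The KO signals were both lower, by -0.28 ± 0.10 (limma adjusted p = 0.223), and the interval ran from -0.49 to -0.06. Rpl5 has no member probe set, and its 3 probe sets shared with a pseudogene differed by 0.11, 0.45 and 0.31 (limma adjusted p from 0.125 to 0.554). Rpl8, which lies near the peptidyl transferase centre, read 4991 and 4232 in WT, with 5113 and 5060.1 in KO (0.15 ± 0.10, limma adjusted p = 0.495), and on the deposited signal log ratio its difference was -0.10. Rpl19, which forms a bridge between the subunits, read 7338 and 6949.6 in WT, with 7919.6 and 7912 in KO (0.15 ± 0.08, limma adjusted p = 0.412). Rpl14 read 127 and 118 in WT, with 148 and 159.8 in KO (0.33 ± 0.19, limma adjusted p = 0.411). For Rpl19 and Rpl14 both KO arrays were above both WT arrays, and neither passed the test. Rpl6 (0.13 ± 0.10) and Rpl37 (-0.17 ± 0.13) also did not pass. Brighter probe sets that Rpl14 shares with Rpl14-ps1 differed by between -0.045 and 0.176 (limma adjusted p of 0.409 or more). For Rpl37, 1453729_a_at, shared with Rpl37rt, read 6465.5 and 5948 on the WT arrays and 6456 and 5909 on the KO arrays (-0.006 ± 0.091). Other probe sets of that pair differed by -0.01 and 0.10.

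Human counterparts of a number of ribosomal protein genes are mutated in Diamond-Blackfan anaemia, in which red cell production fails. Of 19 such genes listed, 11 could be tested: 6 differences were above 0, 5 below, and the median was 0.01. Of the 11, 0 passed (limma, 1.3% of all genes). Unadjusted p was under 0.05 for 1, Rpl11, against 15.6% of all genes, and 55.7% of all genes were above 0. Rps19, the first to be linked with the disease, read 4366 and 4218 in WT, with 4066 and 4086 in KO (-0.07 ± 0.09).

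The 4 probe sets past the threshold belong to Rpl37a, Rps10, Rpl22 and Rps6, and in no gene did another tested probe set pass with it. Rpl37a, a zinc-binding protein of the large subunit, read 48.6 and 46.9 in WT, with 201.0 and 208 in KO at 1416218_x_at. The groups stood far apart, by 2.10 ± 0.21 on the log2 scale or 4.28-fold (limma adjusted p = 9.62e-05). The other probe sets of Rpl37a showed no such step. At 1460543_x_at the signals were 7670 (WT1), 6971 (WT2), 7620.2 (KO1) and 8148 (KO2), with a difference of 0.11 ± 0.09 and overlapping groups. At 1416217_a_at they were 6376, 5721, 5939 and 6091, a difference of -0.006 ± 0.090. A probe set that the annotation assigns to both Rpl37a and Mir682 read 266 and 230.5 in WT, with 219 and 170.5 in KO, on the opposite side of 0 (-0.36 ± 0.18, limma adjusted p = 0.357).

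Rps10, a protein of the head of the small subunit, read 2261 and 2159 in WT, with 1059.5 and 1154 in KO at 1439374_x_at. Both KO arrays lay well below both WT arrays, by -0.999 ± 0.105 or 1.998-fold (limma adjusted p = 0.00017). Of the 5 other tested Rps10 probe sets, 4 were Present on all 4 arrays and differed by between -0.02 and 0.12. At 1438723_a_at, the one with the highest signal, the arrays read 9828, 9551, 9507 and 9591 in the order WT1, WT2, KO1, KO2 (-0.02 ± 0.08). The fifth, 1436384_at, was Absent on WT1, Marginal on WT2 and Present on both KO arrays, where its signal was nonetheless lower (63 and 58.8 in WT, 47.2 and 40.2 in KO, -0.48 ± 0.28).

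Rpl22, an RNA-binding protein of the large subunit that also binds Epstein-Barr virus small RNA, read 593 and 560.4 in WT, with 800.3 and 878 in KO at 1448398_s_at. Both KO arrays were above both WT arrays, by 0.54 ± 0.12 or 1.45-fold (limma adjusted p = 0.0489). At 1453118_s_at the signals were 5348 and 5268 in WT, with 5234 and 5926 in KO (0.07 ± 0.09), and at 1416603_at 2055.5 and 1451 in WT, with 1471 and 1922 in KO (-0.04 ± 0.16), with overlapping groups at both. The 1448398_s_at call was lost when WT1, WT2 or KO2 was left out (limma adjusted p = 0.154, 0.21 and 0.135).

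Rps6, the small-subunit protein phosphorylated by the S6 kinases downstream of mTOR, read 472 and 460.0 in WT, with 324 and 281 in KO at 1416142_at. Both KO arrays were below both WT arrays, by -0.63 ± 0.14 or 1.54-fold (limma adjusted p = 0.0495). Its other probe set, 1453466_at, had signals from 12.7 to 34.0 and was Present on 1 array only, so it was not tested and the call rests on a single probe set. A further 9 probe sets name Rps6 together with its pseudogene Rps6-ps4, and none of the 8 that were tested passed; their differences ran from -0.19 to 0.14 (limma adjusted p from 0.436 to 0.976). Of these, 1416141_a_at read 9234 and 9801 on the WT arrays and 9540 and 9587 on the KO arrays (0.008 ± 0.082), with no step between the genotypes. The call was lost when WT1, WT2 or KO2 was left out (limma adjusted p = 0.247, 0.138 and 0.139). The Rpl37a and Rps10 calls held whichever array was left out, with a limma adjusted p of at most 0.00111 and 0.000578. Without a variance trend in the model the Rps10, Rpl22 and Rps6 calls were lost (limma adjusted p = 0.152, 0.275 and 0.247).

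**Figure D2:**
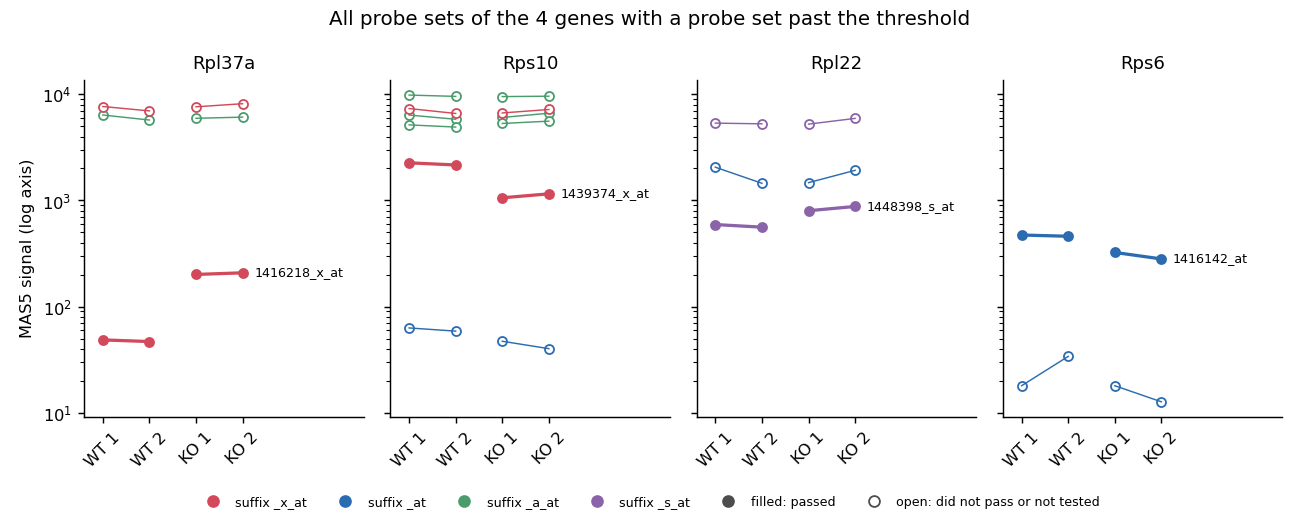
MAS5 signal (log axis, signal units) on the 4 arrays WT1, WT2, KO1 and KO2 for the probe sets of Rpl37a, Rps10, Rpl22 and Rps6, 1 panel per gene, coloured by suffix, with arrays of a genotype joined and the probe set that passed the test filled and labelled. The filled points step between WT and KO, while the other probe sets of Rpl37a and Rpl22 show overlapping groups.

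The deposited files hold a second measure of the same arrays, the signal log ratio of each array against a baseline array that no source names, which compares probe by probe. Its difference between groups lay within 0.2 of the log2 signal difference at 74 of the 87 probe sets. For Rps6 both measures gave a lower KO level (-0.63 on log2 signal, -0.60 on the signal log ratio), and for Rpl22 both gave a higher one (0.54 and 0.60). At the other calls the sign turned. For Rpl37a 1416218_x_at the signal log ratios were 2.1 and 1.8 on the WT arrays and 2.0 and 1.1 on the KO arrays, a difference of -0.40 against 2.10 on log2 signal. For Rps10 1439374_x_at they were 1.6 and 1.9 on the WT arrays and 1.9 and 2.0 on the KO arrays, a difference of 0.20 against -0.999. The direction of these calls therefore depends on which deposited measure is read, and these were the largest gaps between the measures among the 87, 2.5 and 1.2.

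**Figure D3:**
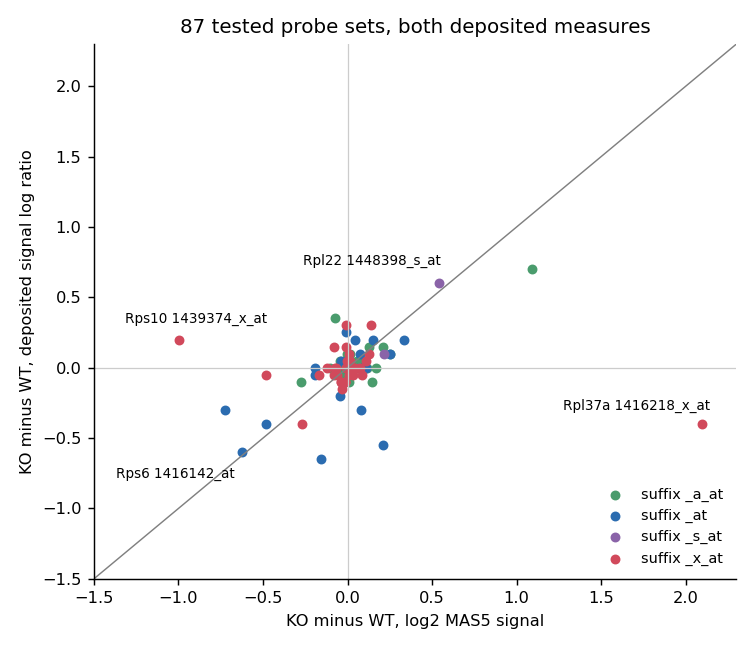
Difference KO minus WT of the deposited signal log ratio (vertical axis, log2) against that of the log2 MAS5 signal (horizontal axis) for the 87 tested ribosomal protein probe sets, coloured by suffix, with the line of equality. Rpl22 and Rps6 lie near the line, while Rpl37a (2.10, -0.40) and Rps10 (-0.999, 0.20) lie far from it with opposite signs.

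Probe sets of 1 gene can be compared for 19 ribosomal protein genes with more than 1 tested probe set. The range of their differences was under 0.2 for 11 of the 19 (57.9%, against 34.6% of the 4107 genes with several tested probe sets), and the median range was 0.09 against 0.30. Rps14, with 8494 and 8012 in WT, with 8099 and 8633 in KO at 1436586_x_at, had a range of 0.03 between its probe sets. Rps7 had a range of 0.03, Rps24 with 5 probe sets 0.06 and Rpl35 with 6 probe sets 0.08. For Rpl35 the 6 differences ran from -0.04 to 0.04. Close to 0 the sign carries little, and it differed between probe sets in 15 of the 19 genes.

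Ranges above 0.4 were found for Rpl37a (2.10), Rps20 (1.21), Rps10 (1.11), Rpl22 (0.58), Rpl41 (0.57) and Rps9 (0.48). In Rps20, 1450417_a_at read 11.9 and 12.4 in WT, with 30.3 and 22.0 in KO (1.09 ± 0.47, limma adjusted p = 0.292) and entered the test through the KO arrays only. The Rps20 probe sets Present on all 4 arrays had a range of 0.11. In Rpl41, the shortest of the ribosomal proteins, 1454639_x_at read 75.6 and 128 in WT, with 66.0 and 75.2 in KO (-0.48 ± 0.27, limma adjusted p = 0.409), while 1455578_x_at held at 11940.4 and 11827 in WT, with 11791 and 11779 in KO (-0.01 ± 0.08). In Rps9 the differences were 0.22 and 0.21 at the probe sets of other suffixes and -0.27 ± 0.12 at 1434624_x_at, with limma adjusted p from 0.313 to 0.698.

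Probe sets ending in _x_at may hold probes that match other sequences as well, and 38 of the 87 tested ribosomal protein probe sets are of this kind. They gave 1 call higher and 1 lower (limma), as did the 49 with other suffixes. Their median difference was -0.01 against 0.01, and the interval lay within 1.25-fold at 31 of 38 (81.6%) against 23 of 49 (46.9%). In 14 genes with both kinds the mean of the _x_at probe sets was higher in 5 and lower in 9, with a median gap of -0.02. The suffix thus went with no shift in a common direction, although the Rpl37a and Rps10 calls both carry it.

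**Figure D4:**
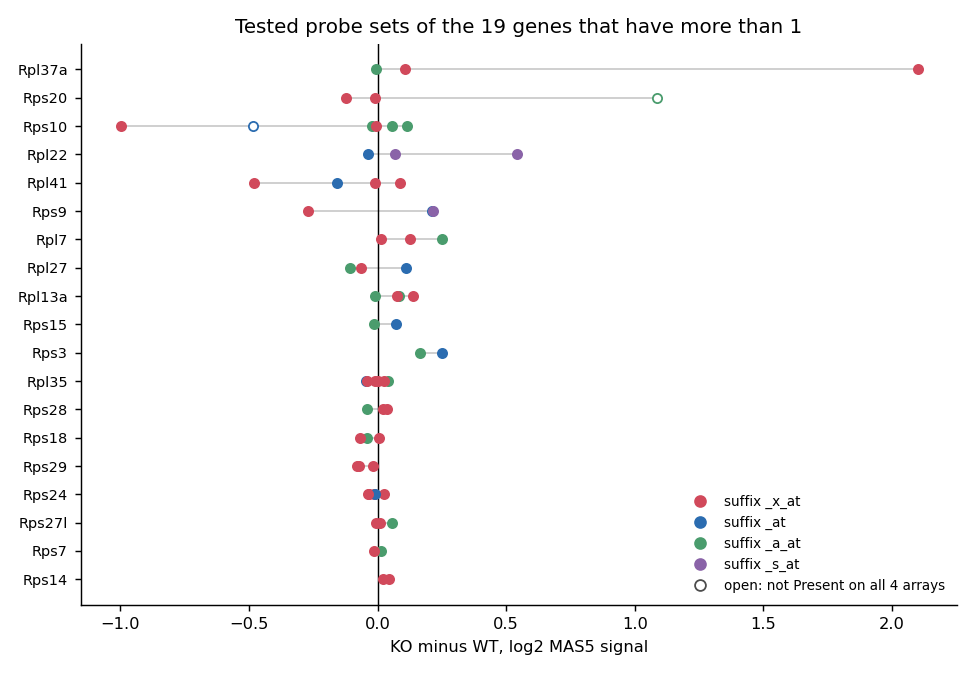
Log2 difference KO minus WT (horizontal axis) of each tested probe set of the 19 ribosomal protein genes with more than 1 (vertical axis), coloured by probe-set suffix, open where not Present on all 4 arrays. Points of most genes lie together near 0, and single points of Rpl37a (2.10), Rps20 (1.09) and Rps10 (-0.999) stand off from the rest of their gene.

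The ribosomal proteins differed as much between arrays of 1 genotype as between genotypes. By the probe set with the highest mean signal, WT1 was above WT2 for 35 of the 43 genes (81.4%, against 47.5% of all 10184 genes), with a median difference of 0.08 (-0.01 over all genes). KO2 was above KO1 for 33 of the 43 (76.7% against 50.6%), with a median of 0.10 (0.004 over all genes). Among the 258 other genes with a mean log2 signal of at least 11.80, KO2 was above KO1 at 72.5% and WT1 above WT2 at 50.4%. The median KO minus WT difference of the 43 genes was -0.07 for KO1 against WT1, 0.02 for KO2 against WT1, 0.02 for KO1 against WT2 and 0.11 for KO2 against WT2. The sign of a small common shift therefore turned with the pair of arrays compared, and the median over the 87 probe sets ran from -0.03 to 0.07 when single arrays were left out.

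**Figure D5:**
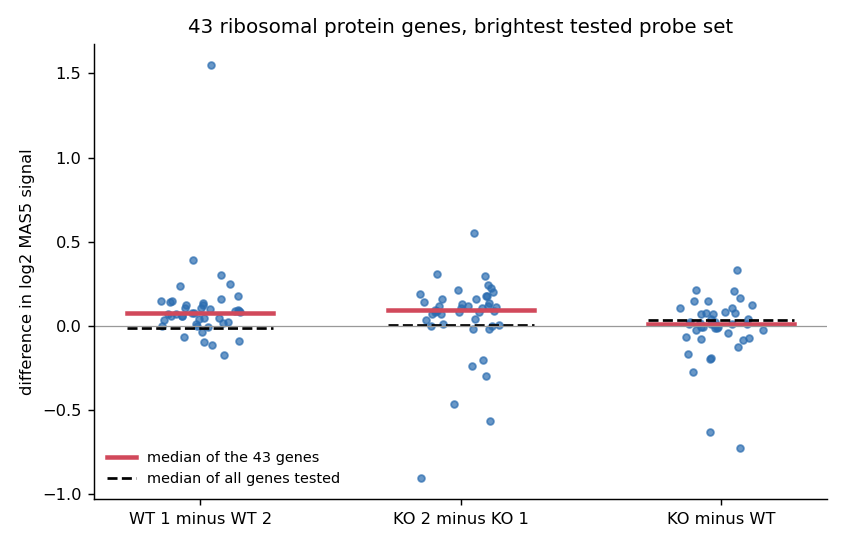
Difference in log2 signal (vertical axis) between the WT arrays, between the KO arrays and between genotypes (fitted KO minus WT), with 1 point for each of 43 ribosomal protein genes (probe set with the highest mean signal), a red line at their median and a dashed line at the median of all genes tested. Most points lie above 0 for WT1 minus WT2 (median 0.08) and KO2 minus KO1 (median 0.10), whereas KO minus WT has a median of 0.01; the highest point on the left is Rps27.

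Some ribosomal proteins have paralogues with a restricted expression. Rpl3l, the form of Rpl3 found in striated muscle, was Absent on all 4 arrays (51.4 and 51.5 in WT, 38.5 and 48.4 in KO). Rpl39l, a relative of Rpl39 known from testis, was called Marginal on both WT arrays and Absent on both KO arrays (34.1 and 34.2, then 20 and 30.5) and was not tested. Rps27l, a relative of Rps27 and a p53 target, was measured by 3 probe sets whose differences ran from -0.01 to 0.06, and 1435429_x_at read 2312 and 2286 in WT, with 2254 and 2325 in KO. Rpl22l1, which can replace Rpl22 in the ribosome, read 2683 and 2332 in WT, with 2135 and 2355.5 in KO (-0.16 ± 0.11, limma adjusted p = 0.499). Rpl7l1 differed by 0.19 ± 0.13 (limma adjusted p = 0.504), and Fau, whose product is cleaved to yield the small-subunit protein Rps30, by 0.04 ± 0.10.

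The 13 probe sets that were not tested include 9 that were Absent on all 4 arrays. They leave Rpl3l, Rpl39l and Rps16 without a tested probe set of their own. That of Rps16 read between 0.5 and 0.8 on every array. Rps16 was measured at a pair of probe sets it shares with a pseudogene and a further locus, with differences of 0.006 ± 0.091 at 1416404_s_at (7252, 6398, 6686 and 6994 in the order WT1, WT2, KO1, KO2) and -0.11 ± 0.08 at 1437196_x_at (10450.0, 9760, 9002 and 9694). Low-signal probe sets of Rpl27a, Rps18, Rps20, Rps24, Rps3, Rps4x, Rps6 and Rpsa were also not tested, and each of these genes had another that was.

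Of the 110 probe sets that name a ribosomal protein with another gene, 98 were tested. They gave 0 calls (limma; 1.34% of all probe sets tested were called). Unadjusted p was under 0.05 at 3, all higher in KO, or 3.06% against 15.5% of all. The median difference was 0.03, with 62 above 0 and 36 below (52% above 0 over all), and the range was -0.47 to 0.47. The interval lay within 1.25-fold at 62 of the 98 (63.3%), close to the share in the members.

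Genes that build ribosomes were read beside their protein parts. Of 85 assembly factors listed, 79 could be tested: 1 rose, 0 fell, 53 differences were above 0 and 26 below, and the median was 0.15, while over all 10184 genes 55.7% were above 0 and the median was 0.03. The 1 call compares with 1.3% called over all genes. At an unadjusted p under 0.05 there were 11 higher and 3 lower of 79, where over all genes 15.6% were past that limit and 8.42% were higher. Gnl2, a nucleolar GTPase needed for maturation of the large subunit, read 147 and 141 in WT, with 236 and 256 in KO. Both KO arrays were above both WT arrays, by 0.78 ± 0.17 or 1.71-fold (limma adjusted p = 0.0397). The call was lost without WT1, WT2 or KO2 (limma adjusted p = 0.114, 0.122 and 0.135), and on the signal log ratio the difference was 0.25 (limma adjusted p = 0.638). Nol6, a nucleolar protein of the small-subunit processome, read 386 and 289 in WT and 209 on each KO array (-0.68 ± 0.17, limma adjusted p = 0.0746), and Rrp15 differed by -0.64 ± 0.19 (limma adjusted p = 0.124). Without WT2, Nol6 passed (limma adjusted p = 0.0336). The nucleolar proteins Ncl (-0.01 ± 0.10), Npm1 (0.20 ± 0.11) and Fbl (-0.14 ± 0.13) did not pass.

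RNA polymerase I transcribes the large ribosomal RNA precursor. Of 17 genes of this polymerase and its factors, 12 could be tested, with 7 differences above 0 (55.7% over all genes), 5 below and a median of 0.06. They gave 0 calls (limma, 1.3% over all genes). Unadjusted p was under 0.05 for 1, Polr1c, against 15.6% over all genes. Polr1c, a subunit shared with RNA polymerase III, differed by 0.41 ± 0.15 (limma adjusted p = 0.215), Polr1b by -0.31 ± 0.20 (limma adjusted p = 0.466) and Ubtf, which binds the ribosomal RNA genes, by -0.25 ± 0.14 (limma adjusted p = 0.416).

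Other genes with a TOP tract encode translation factors and the hosts of small nucleolar RNAs. Of 24 listed, 21 could be tested: 18 differences were above 0, 3 below, the median was 0.08 and 0 passed (limma; 6 at an unadjusted p under 0.05, 5 higher and 1 lower). Over all genes 55.7% were above 0, 1.3% passed and 15.6% had an unadjusted p under 0.05 (8.42% higher). Btf3, part of the complex that meets chains leaving the ribosome, read 1527 and 1297.5 in WT, with 1762 and 2014 in KO (0.42 ± 0.12, limma adjusted p = 0.107). Nap1l1, a histone chaperone, differed by 0.31 ± 0.10 (limma adjusted p = 0.181) and Eif3e, a subunit of initiation factor eIF3, by 0.35 ± 0.12 (limma adjusted p = 0.187). Without KO1, Btf3 and Eif3e passed (limma adjusted p = 0.0375 and 0.0137), and Btf3 also passed with the replicate number as a block (limma adjusted p = 0.0319). The elongation factor Eef1a1, with 13200.1 and 13267 in WT, with 13108.5 and 14037 in KO, differed by 0.04 ± 0.08, and Eef2 by -0.19 ± 0.09.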

How the data were processed

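Per the labels, biotin-labelled RNA of 4 pools was hybridised, 1 array each. The deposited signals are linear intensities. The submitters' processing notes name MAS5 (version not given in the sources used here). They were already scaled by the authors (trimmed means 149.64 to 149.95). The deposited columns include, per the file headers, the p-value and call of detection and a log2 signal log ratio. Log2 signals, with the 4 values of 0 set to 0.1, were fitted with limma 3.58.1 (lmFit, eBayes with a variance trend) in R 4.3.3, without covariates, and p-values (two-sided) were adjusted by Benjamini-Hochberg over all 19065 probe sets tested. Fits were tested on simulated data. Array precision is limited by the 2 arrays per group. Differences are KO minus WT ± SE. Members and gene lists were chosen with earlier results of these data known. Named were every member past the threshold, the 8 genes with the smallest p in each direction, and genes of the role lists and of disagreeing probe sets. Shared probe sets of Rps6, Rps16, Rps25, Rps27, Rpl12, Rpl14, Rpl37 and Rpl39 were named after their values were seen. So were Rps27, Rpsa, Rps19, Eef1a1, Eef2, Ncl, Npm1, Fbl and the level members. Symbols came from the platform annotation, with promoter sequences from RefSeq. Deviations of same-numbered arrays correlated at r = -0.01 across all 19065 probe sets and 0.21 across the 87 members (probe sets are not independent). No label says that the numbers pair pools, and with 2 numbers they were not taken as pairs. Other normalizations, filters, the replicate block, the signal log ratio (fitted without a variance trend) and leaving out each array were tried.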

Additional observations from a re-analysis of the deposited data

How the results depend on the processing

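With 2 arrays per group, limits are wide for probe sets of low signal. The median over the ribosomal protein probe sets, 0.003, ran from -0.028 (centred on the median) to 0.019 (quantile normalization) over the other settings. Without single arrays it ran from -0.027 to 0.068. The median log2 signal of these probe sets was 12.556 and 12.482 on the WT arrays and 12.434 and 12.572 on the KO arrays. The 2 calls higher became 1 after quantile normalization, centring, no detection filter, no variance trend and without _x_at probe sets, and 0 on the signal log ratio. The 2 calls lower became 1 with no filter and without _x_at probe sets, and 0 with no variance trend and on the signal log ratio. The signal log ratio was itself fitted without a variance trend, so calls lost there cannot be ascribed to the measure alone. By gene, the 1 call lower (Rps6) became 0 with no filter, with no variance trend and on the signal log ratio, as did the 1 assembly or polymerase I gene called higher. The replicate block gave 2 genes lower (Rpl39 added, limma adjusted p = 0.00924) and 1 assembly gene lower (Nol6, 0.0112), and Btf3 passed (0.0319). Without single arrays the ranges were 1 to 2 probe sets higher, 1 to 3 lower, 0 to 2 genes lower, 0 to 2 assembly or polymerase I genes higher and 0 to 1 lower. On the signal log ratio Rpl37a (-0.40), Rps10 (0.20) and Rpl8 (-0.10) turned sign. Without single arrays Rps4l ran from -0.47 to 0.08, turning without KO1, and Rps25 from -0.42 to 0.04, turning without KO2. The cause was not tested.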
